A study of Rattus norvegicus with 6 samples.

Results

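Interferon-stimulated genes and the regulators that act on them were followed in rat kidney, 37 genes taken from a list of names. Of these, 34 were matched to 39 probes through the RefSeq accession printed with each probe, and 30 passed the filter on dim probes and entered the fit over 17892 features, 10633 of them named genes. The arrays were hybridised with kidney RNA of 3 rats given Bailing Capsule, a fermented Cordyceps preparation, and of 3 diabetic rats, with every animal 21 weeks of age. The labels name neither dose, strain nor sex, leave unsaid whether the animals given the preparation were diabetic too, and the samples analysed here hold no group that was neither treated nor diabetic. The replicates are numbered but not described further, so a p-value here speaks to the spread among these 6 arrays. In whole kidney, fewer cells of a type and less RNA per cell cannot be told apart.

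Interferons are secreted signals that a cell releases after sensing foreign or misplaced nucleic acid, and type I interferon binds a receptor found on nearly all cells. The receptor's kinases phosphorylate STAT2, which joins IRF9 in a complex that binds a short DNA element upstream of a set of genes, whose products bind viral RNA, cut RNA, stop translation or hold budding virions. IRF7, itself one of these genes, in turn drives production of more interferon, and USP18 and other induced proteins damp the receptor. Interferon gamma acts through a different receptor and a different element.

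The core of the interferon-stimulated response element, written GAAANNGAAA and searched on both strands, was looked for in the 250 bases before each gene's start in the RefSeq promoter table of GRCr8. It was present in 1140 of 33469 promoters (3.41%), and in 18 of the 28 listed genes that the table holds (64.3%). The gamma-activated site, TTCNNNGAA, which is its own reverse complement and can overlap the other core, was present in 2566 of 33469 promoters (7.67%) and in 9 of these 28 genes (32.1%). A match is a stretch of letters and not a measured binding site. The stretches around the core are shown for those listed genes that hold it and fall under the rule for full values given with the processing, so that the element can be seen beside the values. They are written 5′ to 3′ along the gene's own strand, and the capitals mark the core, in either orientation.
Irf7 chr1:205800058-205800117 (minus strand): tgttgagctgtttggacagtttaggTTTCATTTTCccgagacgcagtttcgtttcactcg
Ifit3 chr1:241527257-241527316 (plus strand): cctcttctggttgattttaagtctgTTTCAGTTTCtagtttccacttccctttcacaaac
Oasl2 chr12:47383302-47383361 (minus strand): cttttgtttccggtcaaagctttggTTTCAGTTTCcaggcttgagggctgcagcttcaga
Bst2 chr16:18255058-18255117 (minus strand): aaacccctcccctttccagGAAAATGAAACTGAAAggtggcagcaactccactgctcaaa
Parp14 chr11:78408033-78408092 (plus strand): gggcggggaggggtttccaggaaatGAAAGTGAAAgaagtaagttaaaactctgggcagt
The stretches of Oas1a, its close relative Oas1b and Rsad2 were added after their values were seen, because they hold the core while their values differ. In Bst2, Oas1a and Oas1b the capitals cover overlapping copies of the core.
Oas1a chr12:41330406-41330465 (plus strand): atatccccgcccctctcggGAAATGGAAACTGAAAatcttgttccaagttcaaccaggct
Oas1b chr12:41395871-41395930 (minus strand): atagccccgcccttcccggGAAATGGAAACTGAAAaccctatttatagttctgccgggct
Rsad2 chr6:48788233-48788292 (minus strand): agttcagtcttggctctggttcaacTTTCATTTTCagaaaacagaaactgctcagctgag
The core was thus present in genes with large and with small differences between groups. It was also present in Gbp2, Gbp5, Ifi27, Ifi44, Ifi44l, Ifih1, Eif2ak2, Psmb10, Tap1 and Xaf1. Mx1, Irf9 and Stat2 had an entry and no match to the core in this window. No stretch is shown for Isg15, Ifit1, Ifit2, Mx2, Oas2, Usp18, Rigi, Dhx58 and Zbp1.

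**Figure D1:**
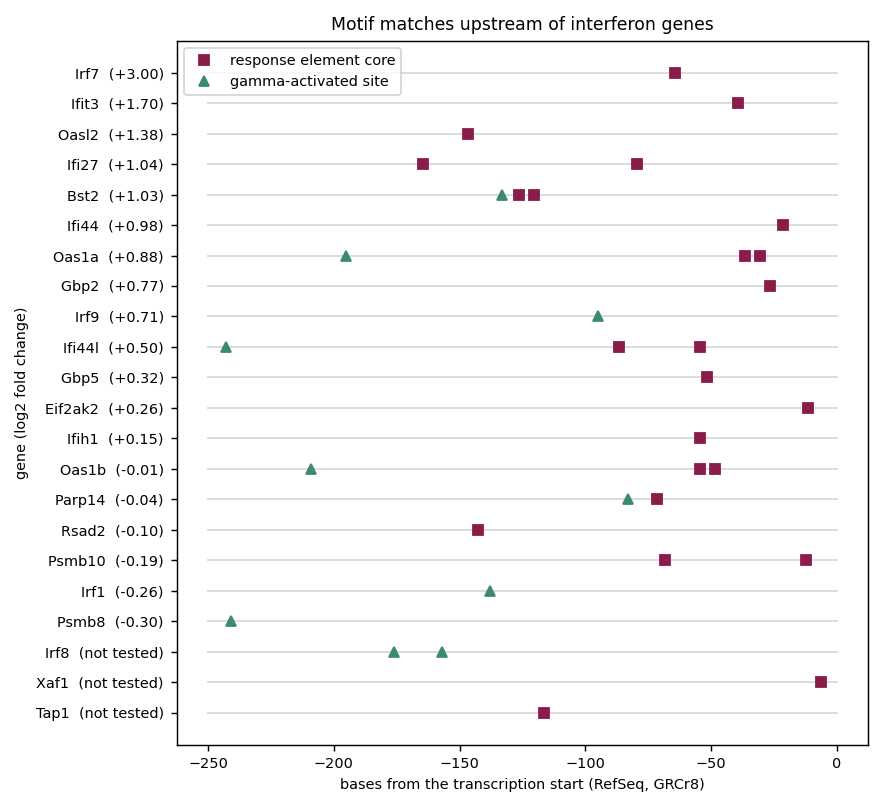
Position, in bases from the start of the gene, of the response element core (squares) and the gamma-activated site (triangles) in the 250 bases upstream, 1 row a gene that holds either, with its log2 difference, Bailing Capsule minus diabetic, in brackets. Cores begin at positions -169 (Ifi27) to -11 (Xaf1), in genes with differences from 3.0 (Irf7) down to -0.19 (Psmb10).

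Values are log2 processed signal relative to the 75th percentile of the same array, so that 0 is a bright probe, and they compare a probe only with itself. Every difference is Bailing Capsule minus diabetic. Arrays correlated with each other at 0.967 to 0.992, the share of probes well above background ran from 64.55% to 73.46%, and the probes for kidney markers (Slc34a1, Lrp2 and Cubn of the proximal tubule, Umod, Aqp2 and Nphs1) were well above background on all 6 arrays. The arrays fell into 2 groups by the scan time in the file headers, and each group was taken as a slide. On that reading, the 3 Bailing Capsule arrays shared slide 1 with the first diabetic replicate. The remaining diabetic replicates lay on slide 2. A fit with slide as a block therefore compares the Bailing Capsule arrays with a single diabetic array.

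Irf7 and Usp18 rose in kidneys of Bailing Capsule animals, and most of the listed genes had a higher value there without passing the test. Of 30, 21 had a positive difference and 9 a negative one, with a median log2 difference of 0.43, beside 37.89% positive and a median of -0.09 over all 17892 features. Irf7 and Usp18 were called higher at an adjusted p under 0.05 and no member was called lower, where 23 of 17892 features were called higher (0.129%) and 57 in either direction (0.319%). Both calls held without Bailing Capsule 1 or diabetic 1. Both were lost without any 1 of the other 4 arrays, with adjusted p by limma of 0.0835 to 0.292 for Irf7 and 0.0637 to 0.143 for Usp18. Both calls were also lost after quantile normalization, with the authors' deposited values, with no filter and with the mean of probes. They were lost too after normexp background correction with quantile normalization, where Irf7 differed by 2.43 and Usp18 by 0.69. At an unadjusted p under 0.05 stood 13 of the 30, against 7.55% of all features. On 11 members every Bailing Capsule array lay above every diabetic array, against 4.58% of features, and on 1, Dhx58, every Bailing Capsule array lay below, against 7.06%. A difference of 1 or more (a doubling) was reached upward by 8 members and by 1.57% of features. Of the 30, 5 (Ifit3, Oas1a, Oas2, Ifi27 and Psmb9) entered through the Bailing Capsule arrays alone, Ifi27 and Psmb9 because diabetic 2 had no value, and the other 25 were well above background on all 6 arrays, with a median of 0.32 and 17 positive differences. Of these 25, 11 stood at an unadjusted p under 0.05, 10 had every Bailing Capsule array above every diabetic array, and 6 reached a difference of 1 or more upward. The same held for 1004, 656 and 141 of the 16096 features well above background on all 6 arrays. Those features had a median of -0.09, with 37.2% positive. Over all 34 genes with a probe and with no filter, the median was 0.34 and 24 were positive.

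**Figure D2:**
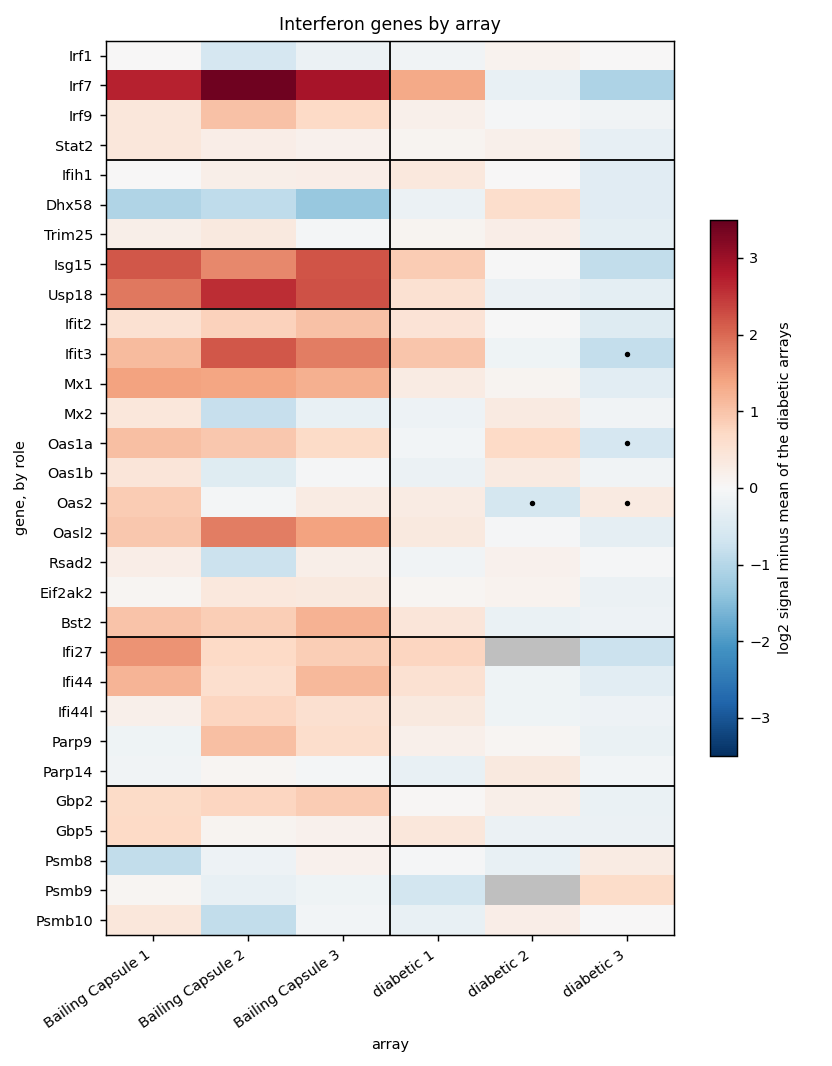
Heat map of the 30 genes tested, 1 row a gene in blocks by role, 1 column an array with Bailing Capsule to the left of diabetic, coloured by log2 signal minus the gene's diabetic mean. Black dots mark a probe not well above background and grey cells a spot left out as an outlier. Irf7, Usp18 and Isg15 show the deepest red in the Bailing Capsule columns, and Dhx58 is blue there.

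Of the transcription factors, Irf7, the interferon regulatory factor that carries the interferon loop forward, had the largest difference of all 30. Irf7 stood at 1.11, 1.83 and 1.30 in the Bailing Capsule arrays and at -0.26, -1.84 and -2.66 in the diabetic arrays. The Bailing Capsule values lay close together and the diabetic values spread over more than 2 log2 units, with diabetic 1 nearest to the Bailing Capsule arrays. Irf7 rose by 3.0 on the log2 scale (SE 0.51, 95% interval 1.85 to 4.14), a 7.99-fold difference, with an adjusted p of 0.0493 by limma. Within slide 1 the difference was 1.67 (adjusted p 0.277 by limma with slide as a block), and of the 30 members no call was made under that block, where 38 of 17883 features were called (0.212%).

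Irf9, the DNA-binding partner of STAT2, stood at -2.72, -2.10 and -2.43 in Bailing Capsule arrays and at -2.95, -3.16 and -3.26 in diabetic arrays. The groups did not overlap, and the difference of 0.71 (SE 0.26) had an adjusted p of 0.494 by limma. Stat2 gave 0.43, 0.26 and 0.17 in Bailing Capsule arrays against 0.12, 0.20 and -0.26 in diabetic arrays, and the groups overlapped (difference 0.27, adjusted p 0.952 by limma). Irf1, an interferon gamma-responsive factor, had overlapping groups, with a difference of -0.26 on its brightest probe and -0.71 on a dimmer one. Irf8, a factor of myeloid cells, was well above background on 1 Bailing Capsule array and on no diabetic array, and was not tested.

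Among nucleic acid sensors, Dhx58 had the difference with the most negative value of the list. It encodes a RIG-I-like receptor that binds double-stranded RNA but lacks the signalling domain. Dhx58 stood at -1.37, -1.23 and -1.66 in Bailing Capsule arrays and at -0.55, 0.28 and -0.72 in diabetic arrays. Every Bailing Capsule array lay below every diabetic one, and the difference of -1.09 (SE 0.31) had an adjusted p of 0.277 by limma. Ifih1, the sensor of long double-stranded RNA, differed by 0.15, and Trim25, a ubiquitin ligase that acts on RIG-I, by 0.15, each with overlapping groups. Zbp1, a sensor of left-handed nucleic acid, and Rigi had no probe matched here.

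Isg15, a ubiquitin-like protein joined to other proteins after interferon, and Usp18, the protease that removes it and blocks the receptor, both had non-overlapping groups. Isg15 stood at -0.51, -1.02 and -0.49 in Bailing Capsule arrays and at -1.81, -2.71 and -3.55 in diabetic arrays, a difference of 2.02 (SE 0.40, adjusted p 0.0971 by limma). Usp18 stood at -2.66, -1.93 and -2.26 in Bailing Capsule arrays and at -3.96, -4.71 and -4.83 in diabetic arrays. Usp18 rose by 2.22 (SE 0.32), with an adjusted p of 0.0177 by limma. In both genes diabetic 1 was the highest diabetic array. Within slide 1 the difference was 1.13 for Isg15 and 1.67 for Usp18 (adjusted p 0.171 by limma with slide as a block). A second probe for Usp18 differed by 2.02 with an adjusted p of 0.15 when probes were tested one by one, which called 60 of 19819 probes (0.303%), among them 1 probe of this list. On all 3 diabetic arrays that probe was dim, without a signal well above background, so it passed the filter through the Bailing Capsule arrays alone. By the bound given with the processing it was at least 2.21-fold higher in Bailing Capsule kidneys. That bound compares group means and carries no interval. Within slide 1 the difference on this second Usp18 probe was 1.31.

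The antiviral effectors, 11 tested, had 8 positive and 3 negative differences and a median of 0.79. Ifit3, Oas1a and Oas2 entered through the Bailing Capsule arrays alone, and the other 8 had 5 positive and 3 negative differences and a median of 0.52. Ifit3, which binds viral RNA with its family, stood at -3.12, -2.05 and -2.43 in Bailing Capsule arrays and at -3.25, -4.38 and -5.07 in diabetic arrays. Its probe was well above background on 2 of 3 diabetic arrays, and its difference of 1.70 (SE 0.45) had an adjusted p of 0.234 by limma. Within slide 1 the Ifit3 difference was 0.72, and after normexp background correction with quantile normalization it was 0.52. Ifit2 of the same family stood at -2.66, -2.39 and -2.17 in Bailing Capsule arrays and at -2.72, -3.22 and -3.63 in diabetic arrays, a difference of 0.79, or 0.32 within slide 1. Neither gene's groups overlapped, and for both the gap between Bailing Capsule 1 and diabetic 1 was small. Ifit1 was well above background on no array. Mx1, a dynamin-like GTPase that restricts viruses, stood at 1.58, 1.56 and 1.41 in Bailing Capsule arrays and at 0.44, 0.26 and -0.20 in diabetic arrays. Its difference was 1.34 (SE 0.26, adjusted p 0.0876 by limma), and the Bailing Capsule arrays had an SD of 0.09. Mx2, its relative, differed by -0.23 with overlapping groups.

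Oasl2, one of the oligoadenylate synthetase family that activates an RNA-cutting enzyme, stood at -2.59, -1.73 and -2.12 in Bailing Capsule arrays and at -3.19, -3.56 and -3.83 in diabetic arrays, a difference of 1.38 (SE 0.30, adjusted p 0.13 by limma). Its groups did not overlap. Oas1a, of the same family, stood at -3.90, -4.02 and -4.28 in Bailing Capsule arrays and at -5.05, -4.26 and -5.54 in diabetic arrays, a difference of 0.88 with diabetic 2 inside the Bailing Capsule range and diabetic 3 not well above background. Oas1b stood at 5.89, 5.05 and 5.41 in Bailing Capsule arrays against 5.26, 5.79 and 5.33 in diabetic arrays, and the difference of -0.01 was within the spread and positive, at 0.0166 to 0.233, under other scalings of the arrays. Oas2 differed by 0.37 with overlapping groups. Oas1a and Oas1b are closely related genes, and cross-hybridisation between their probes was not tested. Oasl was well above background on no array. Bst2, a membrane protein that tethers budding virions, stood at -0.31, -0.46 and -0.10 in Bailing Capsule arrays and at -0.91, -1.55 and -1.50 in diabetic arrays, a difference of 1.03 (SE 0.27, adjusted p 0.234 by limma). The Bst2 groups did not overlap, and within slide 1 the difference was 0.62. Rsad2, a radical enzyme that makes a chain-terminating nucleotide, stood at 1.45, 0.46 and 1.41 in Bailing Capsule arrays and at 1.09, 1.35 and 1.17 in diabetic arrays. Its difference of -0.10 rests on the low value of Bailing Capsule 2, without which it was 0.2245. Eif2ak2, a kinase that stops translation on double-stranded RNA, differed by 0.26 on its brightest probe and by 0.77 on the other.

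Of the small interferon-induced proteins and others, Ifi44 lay between 0.93 and 1.53 in Bailing Capsule arrays and between -0.05 and 0.86 in diabetic arrays, with groups that did not overlap and a difference of 0.98 (SE 0.31, adjusted p 0.347 by limma), or 0.45 within slide 1. Ifi27, a small mitochondrial protein, stood at 5.83, 4.94 and 5.11 in Bailing Capsule arrays and at 5.01 and 3.48 in diabetic 1 and 3, with its spot on diabetic 2 left out. The groups overlapped, and the difference was 1.04 over all arrays and 0.28 within slide 1. Ifi44l differed by 0.50 and Parp9, an ADP-ribosylation protein, by 0.51. Parp14, a relative of Parp9, was the gene whose probes differed in sign. Its brightest probe stood at -0.26, -0.07 and -0.22 in Bailing Capsule arrays against -0.41, 0.20 and -0.24 in diabetic arrays (difference -0.04), and its other probe differed by 0.01. Both values were near 0 and within the spread.

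The guanylate-binding proteins, which attack the vacuoles of intracellular pathogens, both had positive differences. Gbp2 lay between 0.30 and 0.50 in Bailing Capsule arrays and between -0.61 and -0.17 in diabetic arrays, without overlap (difference 0.77, SE 0.25, adjusted p 0.352 by limma). Its difference within slide 1 was 0.74. Gbp5 differed by 0.32, with overlapping groups. The immunoproteasome subunits, which cut proteins into peptides for display, were 3 of 3 negative: Psmb8 by -0.30, Psmb10 by -0.19 and Psmb9 by -0.11 over 5 arrays, with overlapping groups. Within slide 1 the Psmb9 and Psmb10 differences were positive, at 0.531 and 0.0712. Tap1, the transporter that carries those peptides, was well above background on 1 Bailing Capsule array and on no diabetic array, and was not tested. Xaf1 had no probe matched here.

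**Figure D3:**
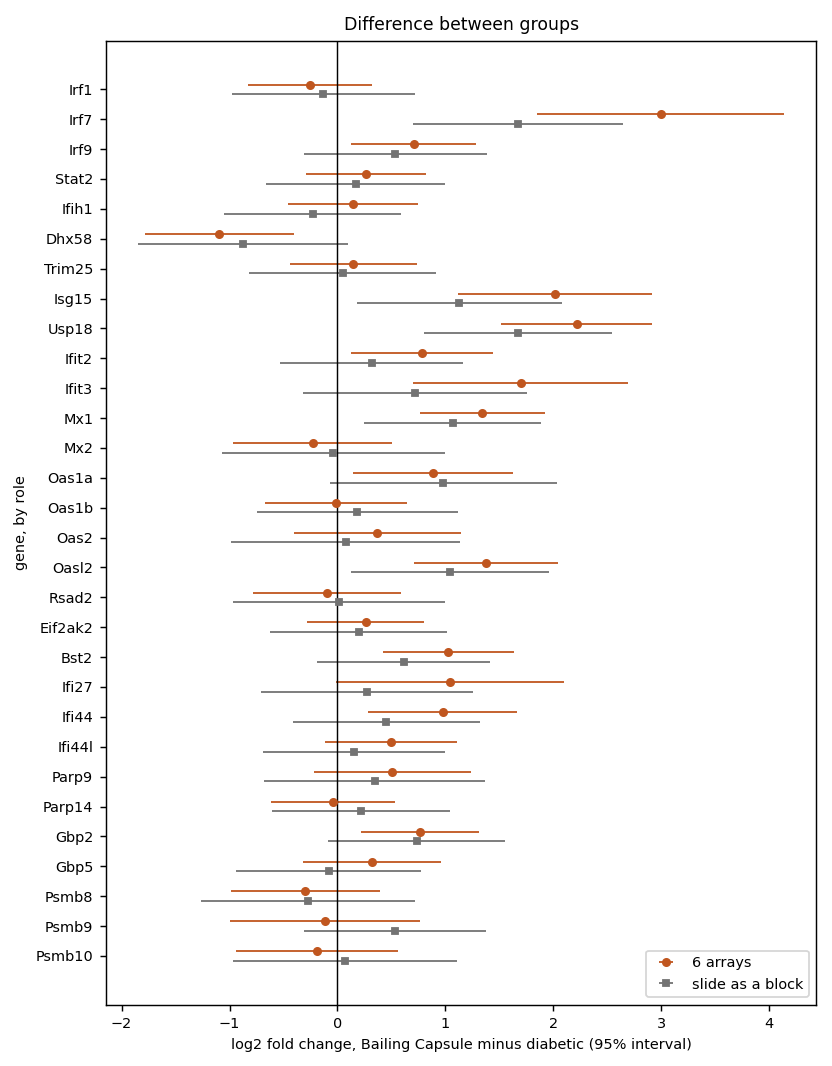
Log2 difference, Bailing Capsule minus diabetic, of the 30 genes tested, with 95% intervals from limma, over 6 arrays (circles) and with slide as a block (squares). Irf7 at 3.0, Usp18 at 2.22 and Isg15 at 2.02 lie farthest to the right and Dhx58 at -1.09 farthest to the left. With the block these 4 stand at 1.67, 1.67, 1.13 and -0.88.

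The diabetic arrays themselves differed along the same list. Among the 28 members with a value on every array, diabetic 1 lay above both diabetic 2 and diabetic 3 on 14, against 19.6% of features, and the median distance of diabetic 1 above their mean was 0.25, against -0.23 over all features. On 10 members (Irf7, Irf9, Isg15, Usp18, Mx1, Oasl2, Ifit2, Ifit3, Bst2 and Ifi44) every Bailing Capsule array lay above diabetic 1, which lay above the other diabetic arrays, a pattern held by 1.62% of features. Every Bailing Capsule array lay above diabetic 1 on 15 members, against 29.8% of features. The Bailing Capsule mean lay 1 or more above diabetic 1 on 5 (Irf7, Isg15, Usp18, Mx1 and Oasl2), against 2.83% of features. Of the 28, Ifit3, Oas1a and Oas2 entered through the Bailing Capsule arrays alone. Of the 25 well above background on all arrays, diabetic 1 lay highest of the diabetic arrays on 13, beside 3086 of 16096 such features. Every Bailing Capsule array lay above diabetic 1 on 13 of these 25, beside 4732 of those features. The full order was held by 9 of them, beside 204 features, and the gap of 1 or more by 5, beside 319. With slide as a block, the median over the 30 was 0.25, against 0.09 over all features. On array medians, the members stood 0.42, 0.48 and 0.45 above their diabetic means in Bailing Capsule arrays and at 0.17, 0.05 and -0.24 in diabetic arrays. Diabetic 1 shared its slide with the Bailing Capsule arrays, and beyond these within-slide values the slide's part in the differences was not tested.

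**Figure D4:**
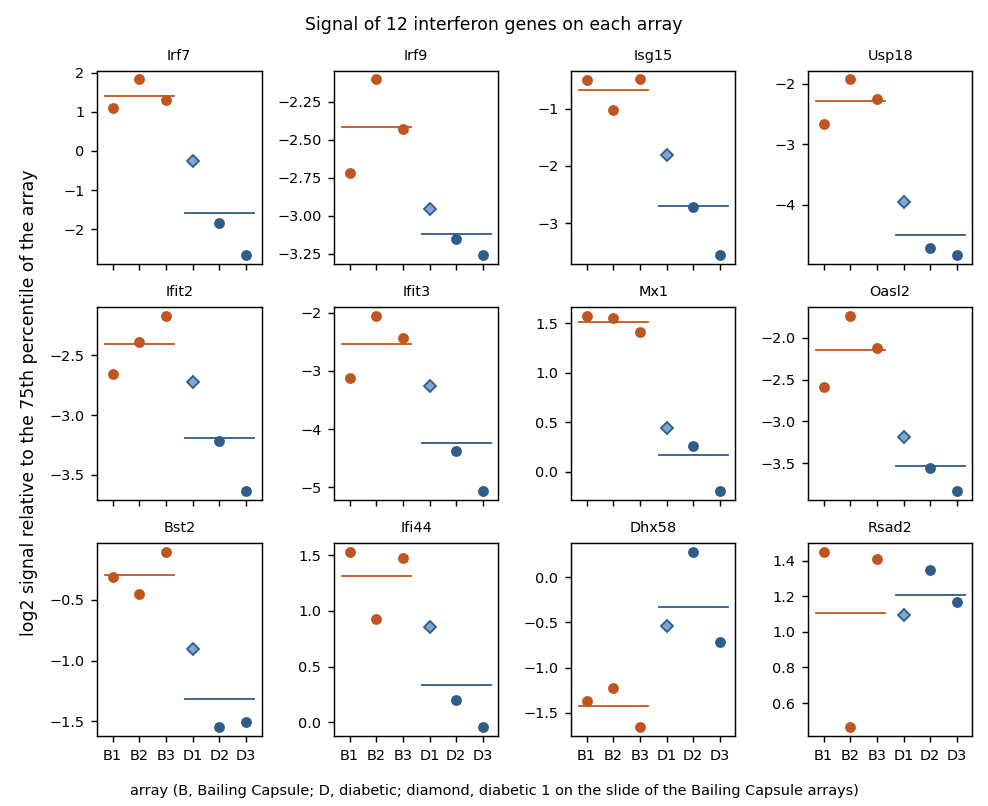
Log2 signal relative to the array's 75th percentile of 12 genes on the 6 arrays, Bailing Capsule (B1 to B3) left of diabetic (D1 to D3), each panel with its own axis; lines are group means and the diamond is diabetic 1. In 10 panels every Bailing Capsule array lies above diabetic 1 and diabetic 1 above the other diabetic arrays, while in Dhx58 the Bailing Capsule arrays are lowest and in Rsad2 the groups overlap.

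No gene listed for the steps around the members was called. Of the ligands, 5 of 12 had a probe and 1, Ifna4, was tested, at a difference of 0.08; Ifnb1, Ifnk and Ifng were well above background on no array. Of 7 receptor and kinase genes tested, 4 differences were positive and 3 negative, with a median of 0.18, no call by limma and 0 at an unadjusted p under 0.05, led by Ifngr2 at -0.40, Ifngr1 at 0.39 and Jak2 at 0.26. None of the 12 tested genes of interferon induction was called by limma (1 at an unadjusted p under 0.05), with 6 positive and 6 negative. Tlr3, the receptor of double-stranded RNA in endosomes, was the lowest at -0.998 (adjusted p 0.397 by limma), with every Bailing Capsule array below every diabetic array. Of 8 tested genes listed for restraint of the signal, 5 were positive, with 1 at an unadjusted p under 0.05. Socs3, a feedback inhibitor of cytokine receptors, differed by -0.60 and Trex1, a DNA-degrading enzyme, by 0.44. Isg20, an interferon-induced RNA-degrading enzyme on that list, differed by 0.56 and is counted again among the other interferon-induced genes. Ube2l6, the enzyme that passes ISG15 to its targets, differed by 0.48.

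Other interferon-induced genes, 60 listed and 35 of them tested, split almost evenly, with 19 positive and 16 negative differences and a median of 0.04. None was called by limma, with 10 at an unadjusted p under 0.05, beside 7.55% of all features. The groups did not overlap upward on 9 and downward on 1, beside the 4.58% and 7.06% of all features given above, and a difference of 1 or more was reached upward by 6, beside the 1.57% of all features, and downward by 2. Of those 9, Irgm entered through the Bailing Capsule arrays alone and was well above background on 1 diabetic array. The downward genes, named after their values were seen, were Cxcl11, a chemokine, at -1.06 (adjusted p 0.274 by limma) with every Bailing Capsule array below every diabetic array, and Ifi47, a GTPase, at -1.16 (adjusted p 0.614 by limma) with overlapping groups and a difference of 0.19 within slide 1. Cxcl9, another chemokine and also named after its value was seen, differed by 1.16 (adjusted p 0.274 by limma), with every Bailing Capsule array above every diabetic array. Cxcl10 differed by -0.09 with overlap. The genes with the smallest p were Phf11 at 1.21 (adjusted p 0.163), Oas1k at 1.26 (adjusted p 0.175) and Apol9a at 1.24 (adjusted p 0.192). Oas1k and Apol9a belong to families of close relatives, and cross-hybridisation was not tested.

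Markers of other cells were measured beside the list, and their part in it was not tested. Summed leukocyte markers (Ptprc, Cd53, Coro1a and Laptm5) spanned 4.445 to 5.441 in Bailing Capsule arrays and 3.919 to 5.33 in diabetic arrays, on the linear signal scale relative to the 75th percentile. Of 10 macrophage and myeloid markers tested, 8 were positive, with a median of 0.22, led by C1qc at 0.98 (adjusted p 0.497 by limma), C1qa at 0.79 and C1qb at 0.47. The summed level, over the 12 markers with a probe, ran from 49.75 to 90.68 in Bailing Capsule arrays and from 56.44 to 68.26 in diabetic arrays. Most of that sum was Lyz2, with log2 means of 5.77 in Bailing Capsule and 5.69 in diabetic arrays. The 4 plasmacytoid dendritic markers tested had a median of -0.11, with sums, over the 3 with a value on every array, of 6.25 to 10.3 in Bailing Capsule arrays and 5.774 to 9.35 in diabetic arrays. Nearly all of each sum was Tcf4, with log2 means of 2.95 in Bailing Capsule and 2.89 in diabetic arrays. Spib had means of -4.86 and -4.48 and Il3ra of -4.24 and -3.96, in the same order. Ccr9, without a value on diabetic 2, differed by 0.22. All 4 had overlapping groups. Ccr9 entered through the Bailing Capsule arrays alone and Il3ra through the diabetic arrays alone. The 4 neutrophil markers tested had a median of -1.04 and none was called by limma (2 at an unadjusted p under 0.05, beside 7.55% of all features). S100a8 differed by -1.78 (adjusted p 0.11 by limma) and S100a9 by -1.46 (adjusted p 0.129 by limma), without overlap of the groups. Both entered through the diabetic arrays alone and were well above background on 2 of 3 Bailing Capsule arrays. Fcnb differed by -0.61 and Csf3r by 0.11, with overlap. Sums over the 5 neutrophil markers with a probe were 0.1498 to 0.1976 in Bailing Capsule arrays and 0.2255 to 0.4066 in diabetic arrays. All 6 tested markers of red cells and platelets were positive, from 0.02 (Hbb) to 1.04 (Alas2), with a median of 0.61. None was called by limma, and only Alas2 and Slc4a1 had groups without overlap. Sums over the 7 markers with a probe were 149 to 297 in Bailing Capsule and 132.7 to 196.4 in diabetic arrays. The median difference was 0.04 over 2 tested T cell markers and -0.33 over 4 endothelial markers, of which Emcn differed by 0.43. Of 4 NK and cytotoxic markers with a median of 0.37, Gzmb differed by -0.66 with every Bailing Capsule array below every diabetic array, and the other 3 by 0.37 to 0.50 with overlap. Of these 3, Nkg7 entered through the Bailing Capsule arrays alone and Prf1 through the diabetic arrays alone. Of the dendritic markers, Clec9a differed by 0.65 without overlap and Zbtb46 by -0.42 with overlap. Among the marker lists 1 gene was called, Slc26a4 of the collecting duct list, beside 0.319% of all features in either direction. This anion exchanger of intercalated cells rose by 1.68 (adjusted p 0.0457 by limma), with a difference of 1.87 within slide 1. Of the other collecting duct markers, Atp6v1g3, a proton pump subunit, differed by 1.09 and the water channel gene Aqp3 by -0.84, both without overlap of the groups, and Aqp2 by -0.48 with overlap. The markers Cd8a, Cd5, Ncr1, Klrb1, Cd79b, Xcr1 and Ppbp were well above background on no array.

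**Figure D5:**
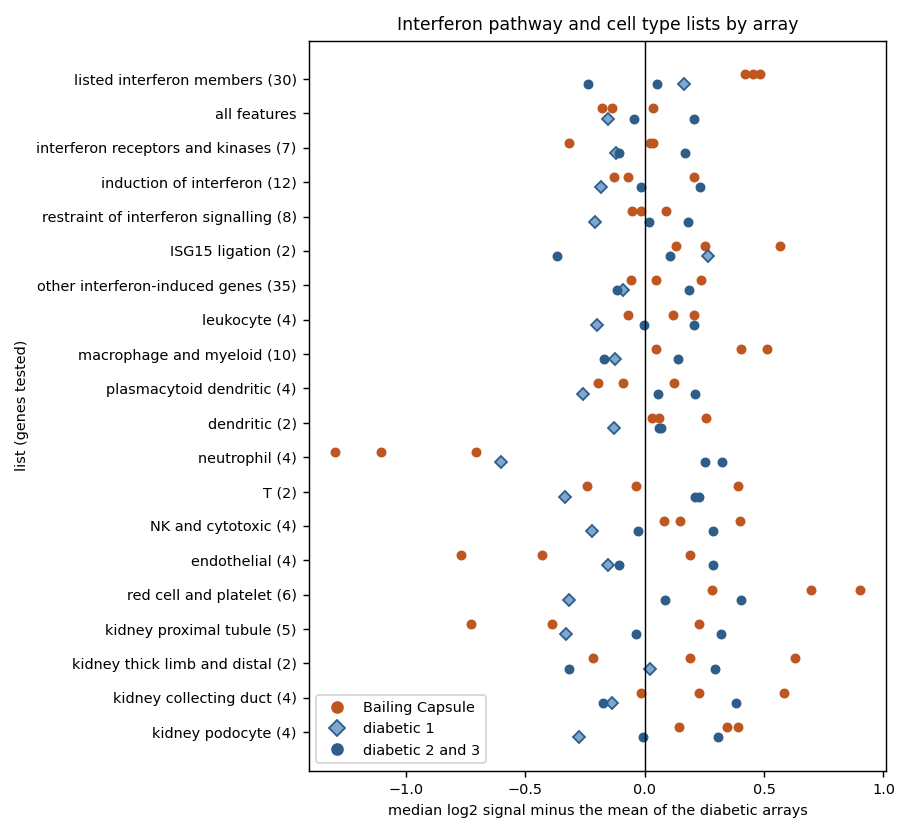
Median over each list, 1 row a list with the number of genes tested, of log2 signal minus the gene's diabetic mean, with 1 point an array (orange Bailing Capsule, diamond diabetic 1, dark blue diabetic 2 and 3). The listed interferon genes stand at 0.42, 0.48 and 0.45 in Bailing Capsule arrays and at 0.17, 0.05 and -0.24 in diabetic arrays, and the median of the neutrophil markers is lower in every Bailing Capsule array than in any diabetic array. Of the 4 neutrophil markers, S100a8 and S100a9 entered through the diabetic arrays alone.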

How the data were processed

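Kidney RNA of 6 rats, labelled with Cy3 per the labels, was hybridised to 1-colour Agilent arrays. Per the file headers, Agilent Feature Extraction 11.0.1.1 produced a background-subtracted intensity for each spot, deposited without scaling between arrays; the headers name build rn4. The authors also deposited a table of log2 values; it appeared quantile normalized, with column medians of 5.0547 to 5.0557, and the sources used here do not give its steps. It entered as an alternative.

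Outlier spots were left out (597 to 1091 an array), spots of a probe averaged, log2 taken and each array's 75th percentile over probes subtracted; no spot was saturated. Probes well above background on all 3 arrays of at least 1 group were kept (at least 50% of spots on an array), and the brightest stood for a gene. RefSeq accessions named 18005 of 30367 probes through a GRCr8 table. The comparison used limma 3.58.1 (R 4.3.3) and Benjamini-Hochberg adjustment over 17892 features, checked on simulated data. For a probe dim on all arrays of a group, a bound on the fold is given, against the mean over its arrays of the higher of the probe's signal and the lowest signal well above background. Alternatives were other background corrections, scalings, filters, probe summaries, variance models, blocks and leaving out each array. The members, lists and the rule for named genes were chosen with earlier results of these data known: full values for called members, those with non-overlapping groups and a difference of 1 or more, Isg15, Irf7, Irf9, Stat2, Mx1, Dhx58, Usp18 and genes whose probes differ in sign. Array values of Ifit2, Oas1a, Oas1b, Rsad2 and Ifi27 were added after their values were seen. Lists in the text give up to 3 genes by smallest p. The number of arrays limits the precision. Values of some genes on the lists are not reported here.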

Additional observations from a re-analysis of the deposited data

How the results depend on the processing

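Against 57 features called in all (23 higher, 34 lower), the total was 12 after normexp with quantile normalization, 6 with no filter, 9 within slide 1, 6 with a replicate block, and 17 to 195 with 1 array left out (17 without diabetic 2, 195 without diabetic 1, 141 without Bailing Capsule 1); the deposited table gave 46 (25 higher, 21 lower) and the slide block 38 (28 higher, 10 lower). The 2 calls among the 30 listed genes were 0 after normexp, with quantile normalization, the deposited table, no filter, the mean of probes, the slide block, within slide 1 and the replicate block, 1 with median scaling, 4 with an intensity trend (with Isg15 and Mx1) and 0 to 5 with 1 array left out: 5 without diabetic 1 (with Isg15, Ifit3 and Mx1), 3 without Bailing Capsule 1 (with Oasl2) and 0 without any of the other 4. By limma, 5 of the 30 stood at an unadjusted p under 0.05 with the slide block or within slide 1, 8 to 15 with 1 array left out and 13 or 14 under the other settings that tested 30; the count was 11 of 25 with the filter on all arrays and 13 of 34 with no filter. After normexp, Oasl2 was 0.53, Oas1a 0.12, Irf9 0.31, Ifit2 0.36 and Isg15 1.19. The median log2 difference of 0.43 was 0.22 after normexp. The 1 probe called on its own was 0 with the slide block. Irf7 ranged from 1.67 to 3.66 (adjusted p 0.00111 to 0.519) and Usp18 from 0.69 to 2.49 (adjusted p 0.00464 to 0.515). Differences changed sign for Oas1b (normexp 0.22, quantile 0.19, median scaling 0.0166, deposited values 0.233, slide 1 0.1863, with 1 array left out -0.233 to 0.187), Rsad2 (normexp 0.0748, slide 1 0.0128, with 1 array left out -0.268 to 0.2245), Mx2 (deposited values 0.0351; with 1 array left out -0.534 to 0.0662), Parp14 (deposited values 0.0261, slide 1 0.22, with 1 array left out -0.166 to 0.138), Ifih1 (slide 1 -0.2287, with 1 array left out -0.0541 to 0.333), Trim25 (with 1 array left out -0.0189 to 0.268), Gbp5 (slide 1 -0.0804), Psmb9 (slide 1 0.531, with 1 array left out -0.757 to 0.531) and Psmb10 (slide 1 0.0712, with 1 array left out -0.478 to 0.151), and the cause was not tested. Replicate numbers did not pair the arrays. Deviations from the group means correlated at -0.18, -0.14 and 0.02 between same-numbered arrays. Between differently numbered arrays of the 2 groups they correlated at -0.23 to 0.26. Within slide 1, the lone diabetic array is assumed to vary like the other group.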
